A study of Rattus norvegicus with 6 samples.

Results

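Genes that make cholesterol, fatty acids and phospholipid in the lung were compared between silica-exposed and control rats. The group was set by name as 35 genes, and its members are all probe sets annotated to 1 of these genes alone. On this array 34 of the 35 genes were measured, by 56 probe sets, out of 14217 named genes. No probe set was annotated to Hmgcs1 alone, and this gene was not analysed here. The sterol branch held 16 measured genes, the fatty acid and phospholipid branch 13, and the regulators numbered 5. The silica group consisted of 3 Lewis rats, an inbred strain, which inhaled aerosolised crystalline silica at 6.2 mg/m3 for 6 hours on 5 days of each of 6 weeks. The control group consisted of 3 Lewis rats kept under similar conditions in filtered air. No source used here gives the animals' age or sex, or how long after the last exposure the lungs were taken. RNA of lung tissue was hybridised to 1 short-oligonucleotide array per animal. In whole tissue a change in the number of cells of a type and a change in RNA per cell cannot be told apart, in either direction.

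Cells make cholesterol from acetyl-CoA through mevalonate, the isoprenoids, squalene and lanosterol. Fatty acid synthesis starts from the same acetyl-CoA, which fatty acid synthase joins into palmitate, and elongases and desaturases then modify the product. Both branches are switched on by the SREBP transcription factors, which the escort protein SCAP carries out of the endoplasmic reticulum when sterols are low and which the INSIG proteins hold back when sterols are high. In the lung, alveolar type II cells use these routes to make the phosphatidylcholine of surfactant, and alveolar macrophages take up and break down spent surfactant lipid.

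SREBP sites act together with the factors NF-Y and Sp1, so windows from 250 bases before to 50 bases after the start site were read from RefSeq (build GRCr8) for 27 of the 34 measured genes. The differences described below were clearest in the 8 members with an unadjusted p under 0.05. The 7 of them with a window in that table are shown, and Fasn had none. Letters run from 5′ to 3′ along the gene, and capitals mark CCAAT or its reverse complement ATTGG, the NF-Y motif, and GGGCGG or its reverse complement CCGCCC, the Sp1 motif.
Mvd, chr19:67414925-67415224, minus strand: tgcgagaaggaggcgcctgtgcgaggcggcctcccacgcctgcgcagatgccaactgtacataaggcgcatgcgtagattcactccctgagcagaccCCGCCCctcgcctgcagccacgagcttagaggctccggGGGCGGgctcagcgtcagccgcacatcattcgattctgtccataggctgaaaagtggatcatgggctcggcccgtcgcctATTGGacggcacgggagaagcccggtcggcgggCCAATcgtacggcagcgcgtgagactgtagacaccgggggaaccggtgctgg
Cyp51, chr4:30991443-30991742, plus strand: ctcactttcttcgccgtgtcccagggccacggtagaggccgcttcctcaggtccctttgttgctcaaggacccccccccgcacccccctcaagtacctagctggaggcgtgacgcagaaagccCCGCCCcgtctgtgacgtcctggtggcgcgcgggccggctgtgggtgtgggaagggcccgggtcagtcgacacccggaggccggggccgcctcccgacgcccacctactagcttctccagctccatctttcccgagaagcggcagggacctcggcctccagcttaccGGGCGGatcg
Lss, chr20:12118181-12118480, minus strand: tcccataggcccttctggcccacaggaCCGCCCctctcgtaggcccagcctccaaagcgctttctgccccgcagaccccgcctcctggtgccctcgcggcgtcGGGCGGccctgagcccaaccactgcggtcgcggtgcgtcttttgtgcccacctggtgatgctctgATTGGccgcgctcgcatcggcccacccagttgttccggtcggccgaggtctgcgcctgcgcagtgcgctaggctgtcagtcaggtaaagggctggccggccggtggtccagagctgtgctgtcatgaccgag
Acss2, chr3:164464453-164464752, plus strand: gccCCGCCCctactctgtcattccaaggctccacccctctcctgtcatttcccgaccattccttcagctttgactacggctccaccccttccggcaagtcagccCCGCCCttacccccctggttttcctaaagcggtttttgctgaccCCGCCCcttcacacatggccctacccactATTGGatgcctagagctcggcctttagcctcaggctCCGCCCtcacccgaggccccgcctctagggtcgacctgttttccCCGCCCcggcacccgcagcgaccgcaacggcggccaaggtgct
Me1, chr8:96540195-96540494, minus strand: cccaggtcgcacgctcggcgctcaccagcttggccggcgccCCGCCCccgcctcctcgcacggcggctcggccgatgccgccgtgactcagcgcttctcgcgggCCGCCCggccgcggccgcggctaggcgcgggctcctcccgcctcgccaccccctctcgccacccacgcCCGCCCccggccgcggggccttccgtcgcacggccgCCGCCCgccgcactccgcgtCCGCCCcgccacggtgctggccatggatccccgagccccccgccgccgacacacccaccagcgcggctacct
Elovl1, chr5:137247905-137248204, plus strand: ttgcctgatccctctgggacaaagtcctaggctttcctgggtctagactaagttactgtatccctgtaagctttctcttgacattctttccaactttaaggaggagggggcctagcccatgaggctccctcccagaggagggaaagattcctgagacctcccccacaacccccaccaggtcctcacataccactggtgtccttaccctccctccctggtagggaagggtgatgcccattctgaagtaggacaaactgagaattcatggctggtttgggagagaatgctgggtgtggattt
Srebf2, chr7:115543057-115543356, plus strand: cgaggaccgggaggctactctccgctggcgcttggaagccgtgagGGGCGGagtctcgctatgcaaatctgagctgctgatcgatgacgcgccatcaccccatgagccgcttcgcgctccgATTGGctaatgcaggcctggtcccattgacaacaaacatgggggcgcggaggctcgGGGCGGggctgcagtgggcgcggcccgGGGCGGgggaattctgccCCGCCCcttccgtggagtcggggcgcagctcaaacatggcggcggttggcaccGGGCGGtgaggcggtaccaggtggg
CCAAT, on either strand, was in 19 of the 28 windows of measured members (67.9%, Srebf1 having several starts), against 36.8% of the 13242 windows of all named genes on the array. GGGCGG was in 22 of the 28 windows of measured members (78.6%), against 55.7% of the same 13242 windows. The sterol regulatory element, searched as TCACNCCAC on both strands, was in 1 of these 28 windows, that of Pcyt1a, and in 1.07% of the 13242. Mvd had CCAAT motifs starting at bases -35 and -2 from its start site, Lss had 1 at -82, Acss2 had 1 at -73 and Srebf2 had 1 at -129. The Cyp51 and Me1 windows held GGGCGG but no CCAAT, and the Elovl1 window held neither. No motifs overlapped in the windows printed. A match is a run of letters, not a measured binding site, and its absence says nothing about the factor.

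Lipid synthesis genes were mostly slightly higher in silica lungs, but nearly all differences missed the threshold, a limma p of 0.05 after Benjamini-Hochberg adjustment over all 31042 probe sets. Counting each gene by its brightest probe set, 0 of 34 members passed in either direction, while 1.55% of the 14217 named genes passed as higher and 0.12% as lower. At an unadjusted limma p under 0.05, 8 members were higher (23.5%) and 0 lower, against 12.6% and 7.27% of all named genes. A log2 fold change above 0 was found in 28 of the 34 members (82.4%), against 53.7% of all named genes. The median log2 fold change (silica minus control, on log2(signal + 16)) was 0.16 over the members and 0.02 over all named genes. All 3 silica arrays lay above all 3 control arrays in 15 members (44.1%) and below them in 1, whereas 18.7% and 12.7% of all named genes separated in this way. Of the 56 member probe sets 1 passed, as higher, against 0.934% of all probe sets as higher and 0.145% as lower (1.08% in either direction). It belonged to Fasn, so that 1 member passed by any probe set, against 1.66% of named genes as higher. The counts depended on the setting: 4 of 32 members passed as higher with the dimmer 50% of probe sets left out (8.13% of named genes as higher), 5 of 34 with an intensity trend and robust spread (5.97%) and 2 of 34 with a pseudocount of 64 (3.66%). Because the list was chosen with earlier results of these data known, these shares describe it and are not a test.

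**Figure D1:**
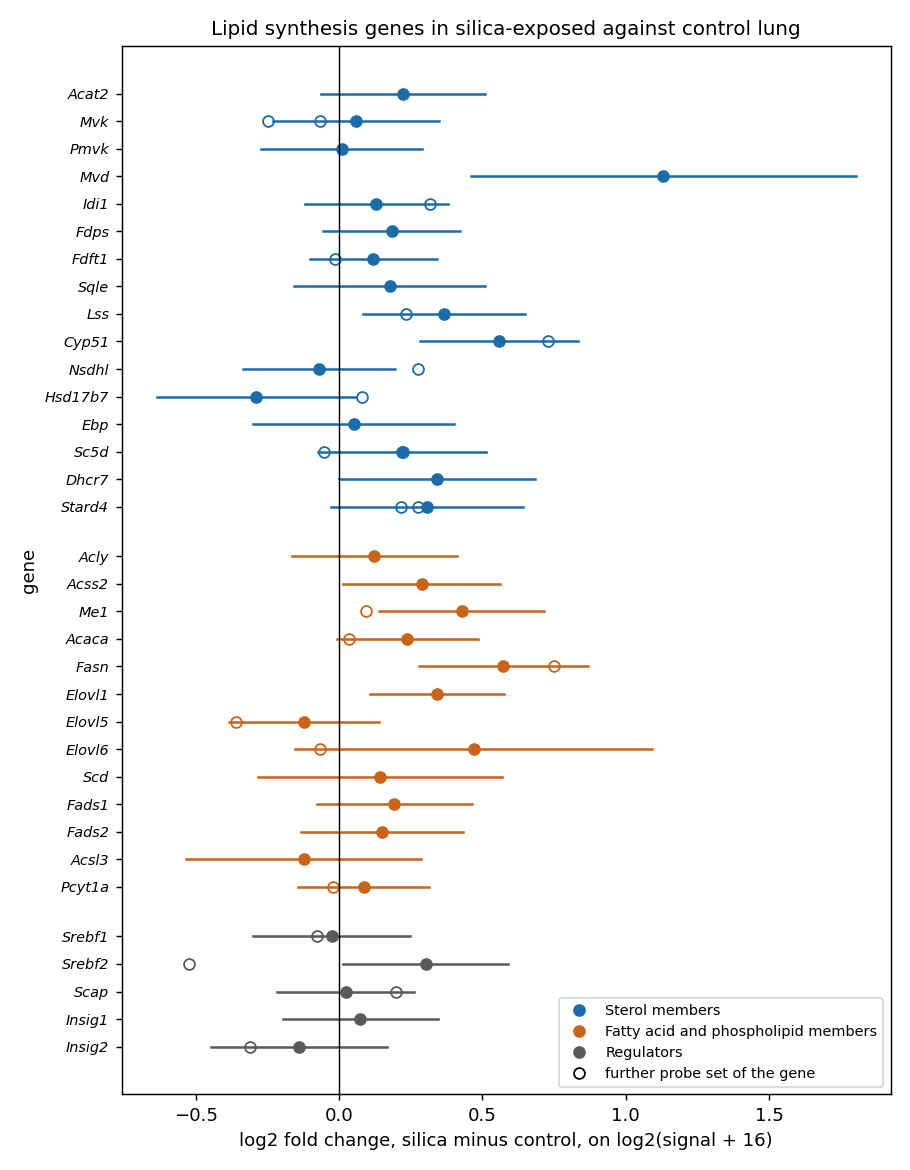
Log2 fold change (silica minus control, on log2(signal + 16), x axis) of each measured gene (y axis), with filled points for the brightest probe set, lines for its 95% confidence interval and open points for further probe sets. Most filled points lie between 0 and 0.5, with Mvd at 1.13, and the sterol and fatty acid branches cover much the same range.

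In the sterol branch the smallest p belonged to Cyp51 and the largest difference to Mvd, and neither passed the threshold. Cyp51, lanosterol 14-alpha-demethylase, removes a methyl group from lanosterol. Its signal was 2134.8, 2267.7 and 1999.2 in silica lungs, against 1451.9, 1572.9 and 1309.6 in control lungs. The groups did not overlap. The log2 fold change was 0.56 ± 0.11 (SE; mean 2134 ± 134 in silica and 1445 ± 132 in control, SD, n = 3 each; limma adjusted p = 0.0929). A further Cyp51 probe set gave 886.8, 688.3 and 667.6 in silica, against 491.3, 514.3 and 339.6 in control (0.73 ± 0.20, adjusted p = 0.158). Both Cyp51 probe sets thus separated the groups without passing. The brightest one is of a type (suffix s_at) whose probes can match more than 1 transcript.

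Mvd, mevalonate diphosphate decarboxylase, makes isopentenyl diphosphate, the isoprenoid building block. Of the 34 members it differed most, by 1.13 ± 0.28 on the log2 scale (95% confidence interval 0.46 to 1.80, adjusted p = 0.133). Its signals were 198.6, 224.5 and 164.7 in silica lungs, against 125.9, 74.9 and 52.9 in control lungs. The groups did not overlap, but the control arrays spread more than 2-fold, and the gene was dim in them. The log2 fold change was 0.83 with a pseudocount of 64 and 1.28 with a pseudocount of 1.

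Lss, lanosterol synthase, closes the sterol rings. It stood at 553.8, 557.1 and 560.0 in silica lungs, against 379.0, 483.1 and 429.7 in control lungs (log2 difference 0.37 ± 0.12, adjusted p = 0.199). The silica arrays were nearly equal and above every control array. A dimmer Lss probe set overlapped between the groups (0.23 ± 0.18). Dhcr7, the enzyme of the last reduction to cholesterol, had 231.2, 317.4 and 304.9 in silica lungs, against 228.8, 213.9 and 215.1 in control lungs. The estimate for Dhcr7 was 0.34 ± 0.14 (adjusted p = 0.290), with silica replicate 1 just above the highest control array. Sqle, squalene epoxidase, a rate-limiting enzyme of the branch, had 678.6, 599.8 and 760.4 in silica, against 578.5, 674.4 and 543.9 in control. The Sqle groups overlapped, with a log2 fold change of 0.18 ± 0.14 (95% confidence interval -0.15 to 0.51, adjusted p = 0.557).

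By the brightest probe set, none of the remaining sterol members had an unadjusted p under 0.05. Stard4, which carries cholesterol between membranes, had a log2 fold change of 0.31 ± 0.14, and its further probe sets had 0.28 and 0.22. Acat2, acetoacetyl-CoA thiolase of the cytosol, and Fdps, farnesyl diphosphate synthase, had 0.22 and 0.18, with silica arrays above control arrays in both genes. Fdft1, squalene synthase, also separated, at 0.12 ± 0.09. Sc5d, Idi1, Mvk, Ebp and Pmvk, which act at other steps, had between 0.22 and 0.01, and in each the groups overlapped. A dimmer Idi1 probe set separated the groups (0.32 ± 0.13, adjusted p = 0.298), and the further probe sets of Sc5d and Mvk overlapped. Hsd17b7 and Nsdhl, both needed to remove the C4 methyl groups of sterols, were the sterol members below 0, at -0.29 ± 0.14 and -0.07 ± 0.11. Their further probe sets had 0.08 and 0.28, so neither gene had a settled direction.

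**Figure D2:**
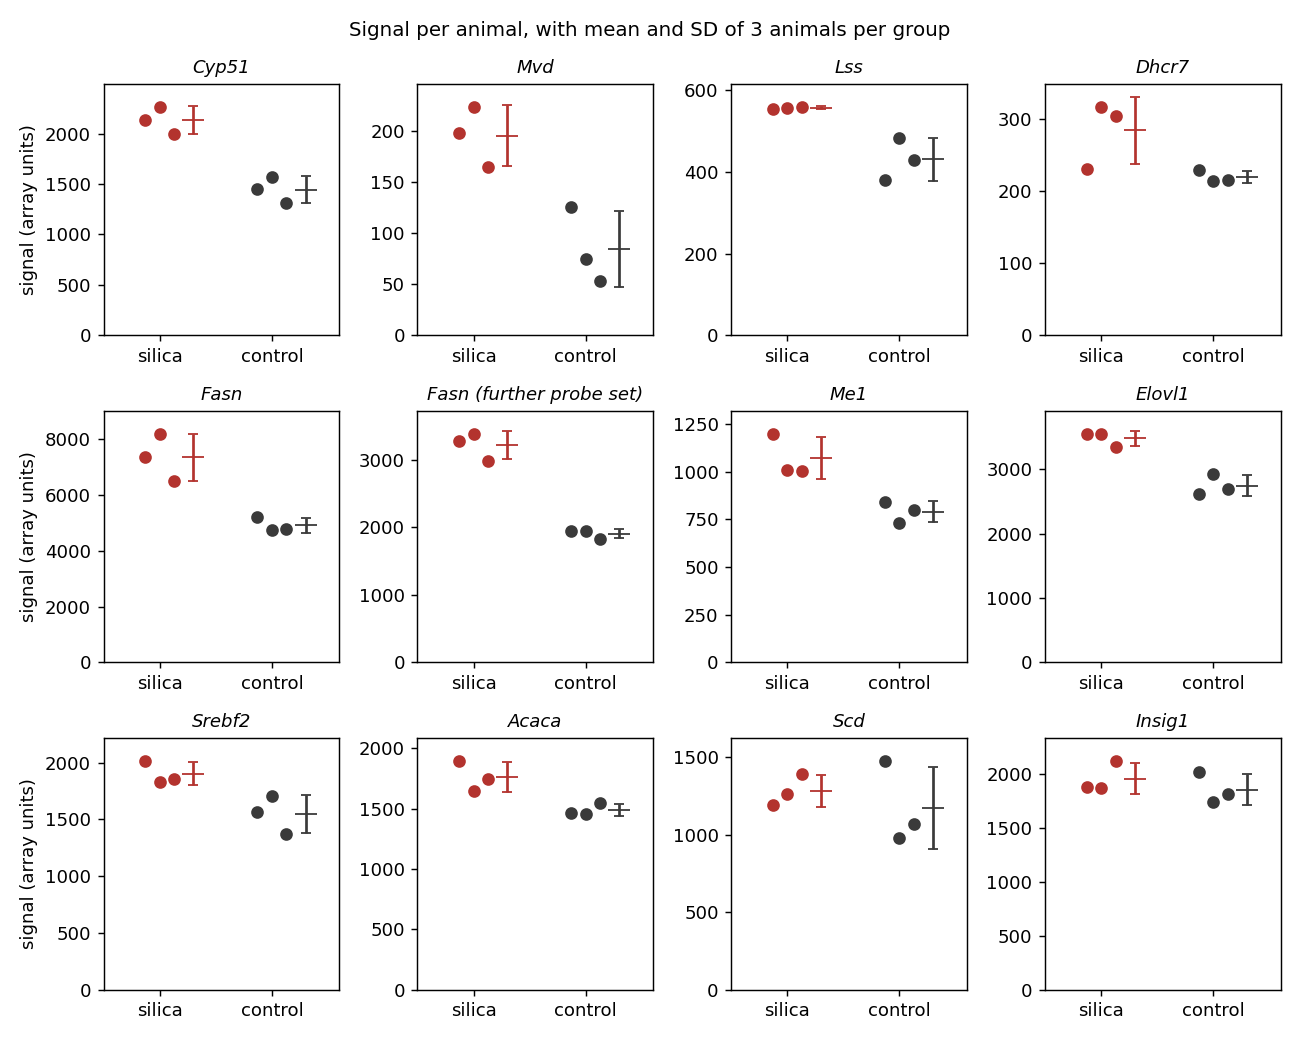
Signal of each array (y axes, array units from 0) for 11 members, and for the further probe set of Fasn, with silica animals on the left and control animals on the right, and with the mean and SD of 3 animals beside the points. Cyp51, Mvd, Lss, Dhcr7, Fasn, Me1, Elovl1, Srebf2 and Acaca separate the groups, and Scd and Insig1 overlap.

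In the fatty acid and phospholipid branch, fatty acid synthase had the largest difference. Fasn gave 7350.7, 8204.1 and 6502.8 in silica lungs, against 5213.7, 4755.5 and 4780.0 in control lungs. Every silica array exceeded every control array. The log2 fold change was 0.57 ± 0.12 (mean 7353 ± 851 in silica and 4916 ± 258 in control, SD, n = 3 each; limma adjusted p = 0.0997). The further Fasn probe set passed the threshold and rose, with 3283.6, 3389.2 and 2982.9 in silica, against 1948.0, 1942.8 and 1828.5 in control (0.75 ± 0.10, adjusted p = 0.0422). This call needed all 6 arrays: with any 1 of them left out the adjusted p lay between 0.101 and 0.144. The log2 fold change then stayed between 0.71 and 0.80. With 1 array left out, between 0 and 12 probe sets of the whole series passed in place of 335, so the loss was not particular to Fasn.

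Acetyl-CoA and NADPH feed fatty acid synthase. Me1, malic enzyme of the cytosol and a source of NADPH, had 1198.4, 1009.6 and 1002.8 in silica lungs, against 841.6, 730.0 and 799.1 in control lungs. These groups did not overlap (0.43 ± 0.12, adjusted p = 0.163), but in a dimmer Me1 probe set they did (0.10 ± 0.13). Acss2, which makes acetyl-CoA from acetate, had 679.9, 673.8 and 568.9 in silica, against 549.4, 506.1 and 506.0 in control (0.29 ± 0.11, adjusted p = 0.268). Acss2 also separated the groups, narrowly in silica replicate 3. Acly, ATP citrate lyase, had 5062.6, 4122.2 and 4163.6 in silica, against 4208.2, 4098.3 and 3897.5 in control (0.12 ± 0.12, adjusted p = 0.641). Only silica replicate 1 exceeded all Acly control values. Acaca, acetyl-CoA carboxylase, the committing enzyme, had 1897.1, 1647.3 and 1745.7 in silica, against 1465.4, 1456.3 and 1547.2 in control (0.24 ± 0.10, adjusted p = 0.297). The Acaca groups did not overlap, but its dimmer probe set had 0.03 ± 0.20.

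Among elongases and desaturases, Elovl1, which lengthens very long saturated chains, had 3550.1, 3537.4 and 3348.1 in silica lungs, against 2619.2, 2922.2 and 2687.7 in control lungs. Every silica array was above every control array (0.34 ± 0.10, adjusted p = 0.167). Elovl5, which lengthens polyunsaturated chains, was the only member whose silica arrays all lay below its control arrays, with 6059.3, 5877.9 and 5826.0 in silica, against 6084.7, 6115.6 and 7179.9 in control (-0.12 ± 0.11, adjusted p = 0.609). The gap between the Elovl5 groups was small and its further probe set overlapped (-0.36 ± 0.26). Elovl6, which lengthens palmitate, was dim, between 36.1 and 94.6, and its probe sets gave 0.47 and -0.07. Scd, the delta-9 desaturase, had 1191.3, 1262.5 and 1391.0 in silica, against 1477.0, 980.6 and 1067.6 in control (0.14 ± 0.17, 95% confidence interval -0.28 to 0.57). Control replicate 1 was the highest Scd array. The polyunsaturated fatty acid desaturases Fads1 and Fads2 had 0.19 and 0.15, with no overlap between groups in Fads1. Acsl3, an acyl-CoA synthetase, had -0.12 ± 0.17. Pcyt1a, the rate-limiting enzyme of phosphatidylcholine synthesis, had 1209.3, 1179.8 and 1103.8 in silica, against 1117.9, 1115.8 and 1053.4 in control. Its groups overlapped, and the log2 fold change was 0.09 ± 0.09 (95% confidence interval -0.14 to 0.31).

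Of the regulators, Srebf2, the SREBP gene that mainly drives sterol genes, had 2016.7, 1830.0 and 1860.4 in silica lungs, against 1562.3, 1703.3 and 1368.4 in control lungs. The groups did not overlap (0.30 ± 0.12, adjusted p = 0.269). A further Srebf2 probe set was below 40 on every array and had -0.52 ± 0.37. Srebf1, which mainly drives fatty acid genes, had 901.4, 1058.1 and 1060.2 in silica, against 1077.7, 960.4 and 1029.6 in control, an overlap (-0.02 ± 0.11, 95% confidence interval -0.30 to 0.25). The transcript forms of Srebf1 were not analysed separately here. Insig1, itself an SREBP target, had 1875.2, 1865.2 and 2118.9 in silica, against 2017.5, 1734.0 and 1809.2 in control, an overlap (0.08 ± 0.11, 95% confidence interval -0.20 to 0.35). Insig2 had 566.3, 547.8 and 651.2 in silica, against 693.7, 572.6 and 686.5 in control, also an overlap (-0.14 ± 0.13, adjusted p = 0.615). Scap had 0.02 ± 0.10.

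The branches had almost the same median log2 fold change, 0.18 over the 16 sterol members and 0.19 over the 13 fatty acid and phospholipid members, against 0.02 over the 5 regulators and 0.02 over all named genes. The sterol median minus the fatty acid and phospholipid median was -0.01. By array, relative to the control mean, the sterol median was 0.14, 0.19 and 0.19 in silica replicates 1, 2 and 3, and the fatty acid and phospholipid median was 0.34, 0.14 and 0.23. The difference between branches was therefore negative in silica replicates 1 and 3 and positive in silica replicate 2. The fatty acid branch varied more among the silica animals, with an SD of 0.10 against 0.03 for the sterol branch. Silica replicate 1 held the highest value of 7 of the 13 fatty acid and phospholipid members, and silica replicate 2 that of 7 of the 16 sterol members. Over all 34 members the highest value was in silica replicates 1, 2 and 3 in 11, 8 and 8 genes, and the lowest was in control replicate 3 in 12. Over all 14217 named genes, silica replicates 1, 2 and 3 held the highest value of 2982, 3029 and 1953, and control replicate 3 the lowest of 3028. Silica replicate 1 and control replicate 3 thus held many extreme values over all genes too. Silica replicate 2 also did so over all genes, with the lowest value of 2837, but over the members it tied with silica replicate 3. Groups separated upward in 8 of 16 sterol members and 6 of 13 fatty acid and phospholipid members, against 18.7% of all named genes. At an unadjusted p under 0.05, 3 sterol members (18.8%) and 4 fatty acid and phospholipid members (30.8%) were higher, against 12.6% of all named genes. No test of the difference between branches was made.

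**Figure D3:**
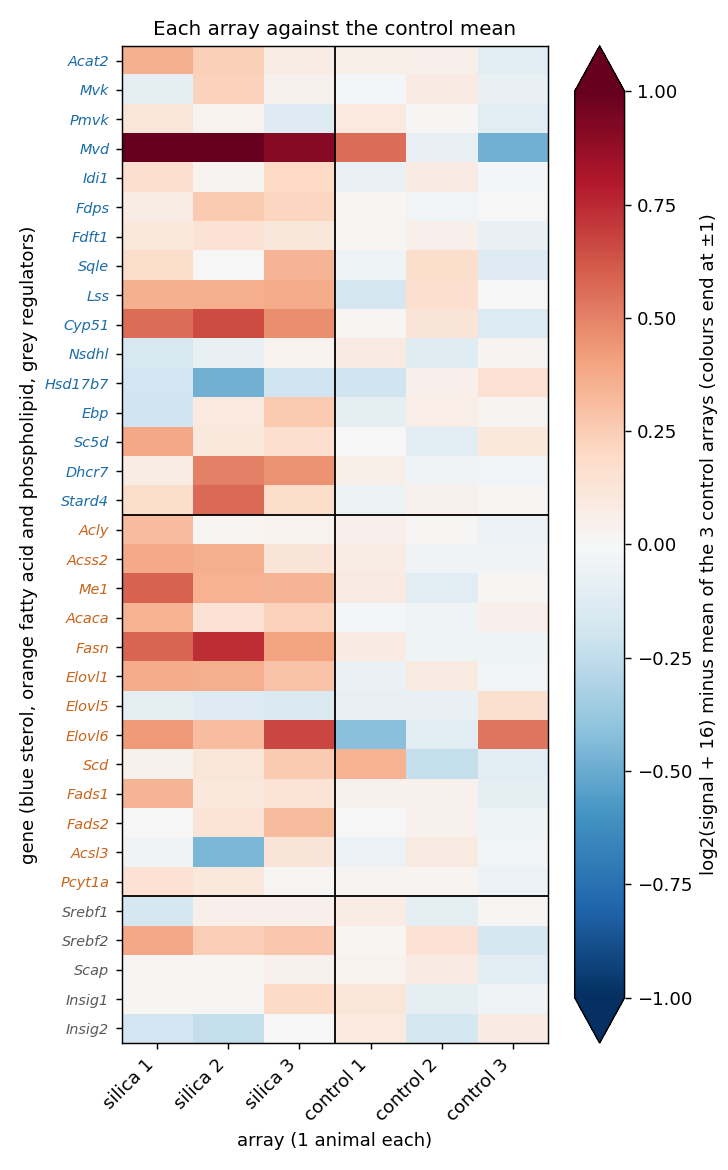
Difference of log2(signal + 16) from the mean of the 3 control arrays (colour) for each of the 34 members (rows, by branch) in each array (columns, silica on the left). Red prevails in the silica columns of both synthesis branches, strongest in Mvd, Cyp51, Fasn and the dim Elovl6, and Srebf1, Scap and Insig1 stay pale.

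**Figure D4:**
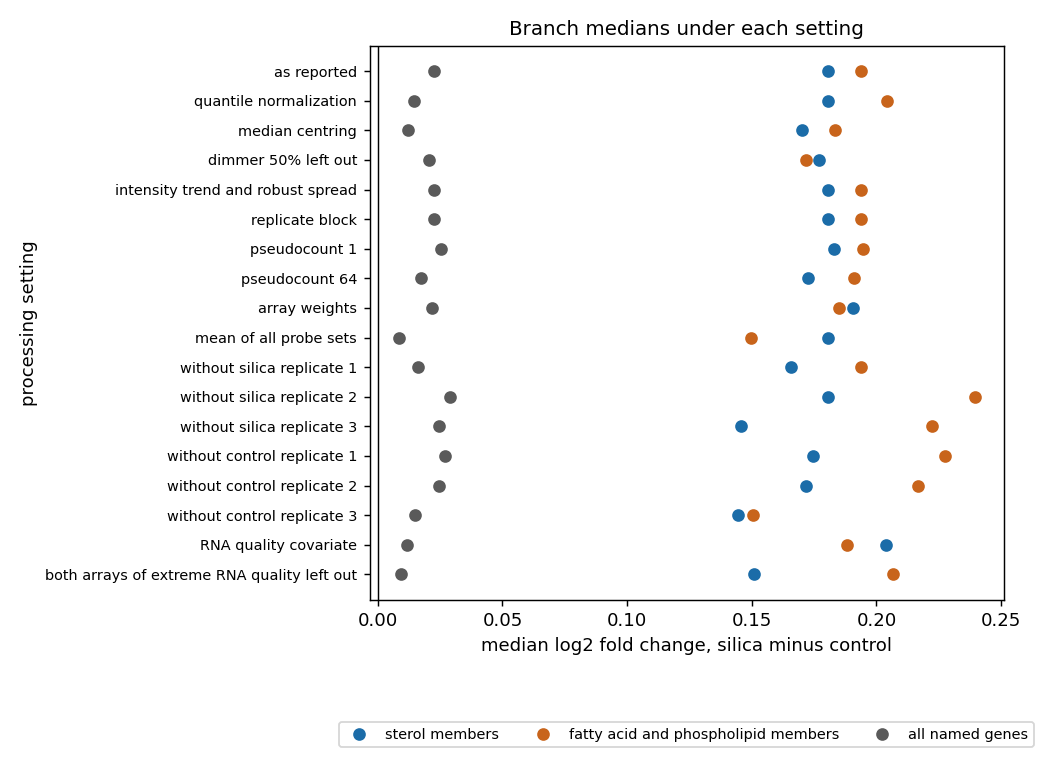
Median log2 fold change (silica minus control, x axis) of the sterol members, the fatty acid and phospholipid members and all named genes under the reported setting and each alternative (y axis). The branch medians lie between 0.14 and 0.24 throughout, those of all named genes stay at or below 0.03, and the order of the branches changes with the setting.

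Other genes of these pathways were taken from lists written with earlier results of these data known. Of 18 further genes listed with the sterol branch 0 passed in either direction by limma, against 1.55% of all named genes as higher and 0.12% as lower. At an unadjusted limma p under 0.05, 2 were higher (11.1%) and 1 lower, against 12.6% and 7.27% of all named genes. Their median log2 fold change was 0.02. The list also holds genes that make no sterol, such as Lpin1, Mbtps1 and Erlin1, so this is not a median of sterol synthesis genes alone. The smallest p belonged to Cyb5r3, a reductase that serves sterol synthesis and fatty acid desaturation, at -0.31 ± 0.09. It was followed by Tm7sf2, a sterol C14 reductase, at 0.46 ± 0.15 and the phosphatidate phosphatase Lpin1 at 0.29 ± 0.10. Msmo1, a C4 sterol methyl oxidase and SREBP target, had 0.16 ± 0.12. Of 44 further fatty acid and phospholipid genes, 1 passed as higher and 0 as lower. This was Pgd, the pentose phosphate enzyme that makes NADPH, which rose to 2860.1, 3450.0 and 2819.5 in silica lungs, against 1790.9, 1634.7 and 1669.4 in control lungs (0.83 ± 0.12, adjusted p = 0.0458). All silica Pgd values lay well above the control values. With any 1 array left out, where few probe sets of the whole series passed, the adjusted p of Pgd lay between 0.0991 and 0.145. Dgat2, which makes triglyceride, and the mitochondrial malic enzyme Me2 were next, with 0.42 and 0.46, and neither passed. The list had a median of 0.13, with 31 of 44 genes above 0 (70.5%), against 53.7% of all named genes. At an unadjusted limma p under 0.05, 9 were higher (20.5%) and 1 lower, against 12.6% and 7.27% of all named genes. As given above, 1.55% of all named genes passed the threshold as higher.

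Of 20 genes of sterol sensing, efflux and storage, 1 passed as higher and 0 as lower, against 1.55% and 0.12% of all named genes. Ch25h, cholesterol 25-hydroxylase, whose product 25-hydroxycholesterol holds SREBP processing back, rose to 799.9, 819.8 and 894.7 in silica lungs, against 433.5, 473.7 and 411.5 in control lungs. The groups lay far apart (0.91 ± 0.11, adjusted p = 0.0330). With any 1 array left out, where few probe sets of the whole series passed, the adjusted p of Ch25h lay between 0.0914 and 0.132. Plin2, a lipid droplet coat protein, had 0.58 ± 0.11 (adjusted p = 0.0886), and Lipa, the lysosomal acid lipase, had 0.57 ± 0.12 (adjusted p = 0.106). The silica and control arrays did not overlap in either gene. Abca1 went the other way, with every silica array below every control array (-0.23 ± 0.09), whereas Abcg1 had 0.30 ± 0.10. The list had a median of 0.16 with 13 of 20 genes above 0 (65%), against 53.7% of all named genes. At an unadjusted limma p under 0.05, 6 were higher (30%) and 1 lower, against 12.6% and 7.27% of all named genes.

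Markers of other cells moved beside these values. For comparison with the counts below, 1.55% of all named genes passed as higher and 0.12% as lower. At an unadjusted limma p under 0.05 these shares were 12.6% and 7.27%. The labels name lung. Markers of its alveolar type II cells all exceeded the pseudocount on some array, with Sftpa1 and Sftpc the brightest of the 11. Their summed signal ran from 135958 to 162783 in silica and from 149439 to 156071 in control, 0 of the 11 passed, 0 had an unadjusted p under 0.05, and their median log2 fold change was -0.04. Macrophage markers passed as higher in 3 of 11 genes, with a median of 0.83. Their summed signal ran from 39928 to 45134 in silica and from 25423 to 26580 in control, with Gpnmb and Lgals3 the brightest. Csf1r (0.10), Mrc1 (0.03), Cd163 (-0.45) and Fabp4 (1.04) overlapped between the groups. T cell markers passed as higher in 5 of 7 genes, with a median of 1.03. Their summed signal ran from 5046 to 6025 in silica and from 2589 to 2982 in control, and Cd4 overlapped (-0.006). Proliferation genes passed as higher in 3 of 10, with a median of 0.99. Their summed signal ran from 7172 to 7783 in silica and from 5228 to 5842 in control, and Aurkb overlapped (-0.15). Neutrophil markers passed as higher in 1 of 5, with a median of 0.65 and a summed signal from 26382 to 38612 in silica and from 10608 to 12041 in control. The gene that passed was Lcn2, the brightest of this list. Its signal ran from 17082.2 to 22700.7 in silica and from 4745.7 to 5351.7 in control, so it made up most of the silica sum. S100a8 and S100a9 separated the groups without passing, and Csf3r and Cxcr2 overlapped. None of the macrophage, T cell, proliferation and neutrophil markers was below 16 on all 6 arrays. Adipocyte markers, which bear on Fasn, Scd and Me1, had a median of -0.53, 0 of 11 passing and 1 gene in each direction at an unadjusted p under 0.05. Their summed signal, mostly from Lpl, ran from 10238 to 10435 in silica and from 8571 to 11580 in control. Adipoq, the most specific of them, had 55.6, 59.9 and 9.2 in silica lungs, against 210.7, 31.7 and 752.6 in control lungs. The Adipoq groups overlapped, with control replicate 2 below silica replicates 1 and 2. Lpl, the brightest of the list, did not overlap and had 0.28 ± 0.10 (adjusted p = 0.233). The part of adipocytes, macrophages, neutrophils, T cells and dividing cells in the lipid gene values was not tested. The log2 ratio of 3-prime to 5-prime control probe sets (mean of Actb and Gapdh), which grows as RNA degrades, ran from 1.15 to 1.67 in silica arrays, against 0.996 to 1.23 in control arrays. With that ratio as a covariate the sterol and fatty acid medians were 0.20 and 0.19, and 0 members passed. Acat2 then had 0.05 in place of 0.22 (adjusted p = 0.912), Mvd 0.80 in place of 1.13 (adjusted p = 0.511) and Acss2 0.15 in place of 0.29. Cyp51 had 0.46 and Fasn 0.45 (adjusted p = 0.412 and 0.432), and Ebp and Elovl6 had larger values, 0.27 and 0.81.

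Where several probe sets measured a gene, they differed in sign in 8 of 19 genes, which were Mvk, Fdft1, Nsdhl, Hsd17b7, Sc5d, Elovl6, Pcyt1a and Srebf2. The probe sets of Cyp51, Fasn, Lss, Stard4, Idi1, Me1, Acaca, Elovl5, Srebf1, Scap and Insig2 shared a sign. Among the members with several probe sets, Cyp51 and Fasn had over 0.5 in each of theirs.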

How the data were processed

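The authors deposited intensities on a linear scale, with 1 value for each probe set of each array. No source used here gives the summarising software, and every array had a mean near 500.1 after trimming 2% at each end. Per the labels' protocols, the arrays were hybridised with biotinylated cRNA. No detection calls were in the table, so dim values have no stated background, and the number of arrays limits precision.

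Gene names came from the platform annotation, updated by gene identifier to RefSeq (GRCr8). Of 31042 probe sets compared, 20826 had 1 gene and 436 several, and 57 control probe sets were left out. A gene was represented by its probe set with the highest mean signal. Values were log2(signal + 16), with array medians between 7.38 and 7.42. Groups were taken from the sample titles. The silica and control animals were compared on this log2 scale with limma 3.58.1 under R 4.3.3. The model (lmFit, eBayes) held group alone, with Benjamini-Hochberg adjustment over all probe sets and a threshold of 0.05, and the fit was tested on simulated data. In this comparison 290 probe sets were higher and 45 lower. Alternatives were other normalizations, pseudocounts of 1 and 64, a filter on dim probe sets, other variance models, array weights, a replicate block, the mean of a gene's probe sets, each array left out, and RNA quality. An exact permutation test of 3 against 3 cannot go below 0.1.

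The members and lists were chosen with earlier results of these data known. All members are accounted for. Values per array are given for fixed key genes (Sqle, Cyp51, Srebf1, Srebf2, Insig1, Acly, Acaca, Fasn, Scd and Pcyt1a) and for the 4 members with the smallest p in each synthesis branch and 2 among the regulators. Of the other pathway lists the 3 genes with the smallest p and any past the threshold were named. Arrays of Elovl5, and Msmo1, Abca1, Abcg1, Adipoq and the neutrophil markers by name, were given after their values were seen. The same holds for the macrophage, T cell and proliferation markers named as overlapping. The marker lists also held B and plasma cells (median log2 fold change 0.24), endothelium (-0.12), fibroblasts (-0.02), ciliated and club cells (-0.13) and cardiac muscle (-0.08).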

Additional observations from a re-analysis of the deposited data

How the results depend on the processing

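Over the alternatives, 335 probe sets past the threshold became 1650 with the dimmer 50% left out, 1862 with an intensity trend and robust spread, 919 with pseudocount 64, 43 with pseudocount 1, between 0 and 12 with 1 array left out, and 0 both with an RNA quality covariate and with both arrays of extreme RNA quality (silica replicate 1 and control replicate 3) left out, the last 2 settings being chosen after seeing the data. The counts of members past the threshold were 4 with the dimmer 50% left out (Cyp51, Me1, Fasn and Elovl1, of 32 members, as Mvd and Elovl6 fell out, against 8.13% of named genes as higher), 5 with the intensity trend (those and Mvd, against 5.97%) and 2 with pseudocount 64 (Cyp51 and Fasn, against 3.66%), all higher in silica, and 0 otherwise. The cause was not tested. The sterol median was 0.151 with both arrays of extreme RNA quality left out and between 0.144 and 0.181 with 1 array left out. The fatty acid and phospholipid median lay between 0.150 and 0.239 over all alternatives, and the difference of branch medians between -0.08 and 0.03, so its sign depended on the setting. The sample titles number the replicates but do not say whether the numbers pair the arrays. Same-numbered arrays had correlations of deviations of 0.09, 0.04 and 0.09, and differently numbered arrays had between -0.08 and -0.002. With the number as a replicate block 1 probe set and 0 members passed, and the further Fasn probe set had an adjusted p of 0.153. That probe set passed in 6 of 16 alternatives, and Pgd and Ch25h each in 7 of 17.

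Among members, signs turned for Mvk, Pmvk, Nsdhl, Ebp, Acly, Acsl3, Srebf1 and Scap, and for Srebf2, which had -0.11 as the mean of its probe sets. With that mean Mvk had -0.0854 and Nsdhl 0.10. Pmvk had -0.0022 with quantile normalization, -0.0012 with median centring and -0.0176 with array weights. With the RNA quality covariate Pmvk had -0.15, Nsdhl 0.0251, Acly -0.0114, Srebf1 0.0679 and Scap -0.0025. With both arrays of extreme RNA quality left out Pmvk had -0.10, Acly -0.0035, Srebf1 0.0572 and Scap -0.0253. With 1 array left out Mvk ran from -0.0245 to 0.135, Pmvk from -0.0465 to 0.0788, Ebp from -0.0523 to 0.178, Acsl3 from -0.248 to 0.0449, Srebf1 from -0.0685 to 0.0515 and Scap from -0.0324 to 0.0637. Over all alternatives Cyp51 lay between 0.46 and 0.64 and Fasn between 0.45 and 0.66.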
